A study of Mus musculus with 4 samples.

Results

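The genes described here are the 5 subunits of the phagocyte NADPH oxidase named Cybb, Cyba, Ncf1, Ncf4 and Rac2. They were chosen as a named group, with earlier results of these data known. All 5 were listed in each of the 4 deposited libraries, among 11195 genes listed in all 4. Their RNA was measured in synovial myeloid cells before and during serum-transfer arthritis, over barcodes in which 500 genes or more were detected and mitochondrial genes made up less than 10% of the counts.

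The phagocyte NADPH oxidase is an enzyme of macrophages, monocytes and neutrophils that passes electrons from NADPH to oxygen and so makes superoxide. Its membrane part, encoded by Cybb and Cyba, is idle until cytosolic subunits, among them the products of Ncf1 and Ncf4, and a Rac GTPase move to the membrane after a phagocytic or inflammatory stimulus. Loss of the enzyme causes chronic granulomatous disease, and loss-of-function alleles of Ncf1 are known to change the severity of arthritis in rats and mice.

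The mice were Cx3cr1creER:tdTomato animals, in which tamoxifen activates a Cre recombinase driven by Cx3cr1 and marks cells that use that gene, and their descendants, with the red reporter tdTomato. All of them, day 0 included, received tamoxifen at 4 mg/ml, given systemically on 2 occasions within 48 h. K/BxN serum, which carries arthritogenic autoantibodies, followed 4 weeks later in the day 1, day 2 and day 5 groups, and the day 0 group was at steady state. From hind paw synovium, the tissue lining the joint, cells with CD45 and CD11b on their surface and no Ly6G (a neutrophil protein) were sorted, and 17400 were loaded per library on a droplet system that counts unique molecular identifiers (UMIs) at the 3' ends of transcripts. There was 1 library per day, the number and age of the mice behind each are not given in the labels, and reporter-positive and reporter-negative cells are together in each library. Day and library therefore cannot be told apart, and differences are given without tests because nothing measures the spread between animals. Every interval below is a 95% interval that covers counting error only.

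The filter retained 3715, 4642, 2722 and 3235 barcodes at days 0, 1, 2 and 5, of 7542, 4674, 2756 and 3265 deposited. The day 0 library stood apart in depth, with a median of 1057 UMIs per retained barcode against 3607.5, 4183.5 and 3897 on the later days, and lost 3760 barcodes to the gene minimum. Libraries shared between 10 and 22 barcode sequences, at most 0.68% of the smaller library of a pair. All 4 genes of a list of sorted proteins (Ptprc for CD45, Itgam for CD11b) and macrophage genes (Csf1r and Adgre1) were listed on every day. They summed to 1368 to 1827 CPM, the UMIs of a gene per 1000000 UMIs of its library or group. Csf1r, which was not sorted on, was the largest part, with 914 CPM at day 0 and 688.5 CPM at day 5. Of 10 neutrophil genes, 2 to 5 were listed, Ly6g, Camp, Ngp, Ltf and Retnlg on no day, and the list summed to 20.01, 12.3, 14.6 and 48.4 CPM at days 0, 1, 2 and 5.

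The membrane pair stood at close to the same level on all days. Cyba, the small membrane subunit that stabilises its partner, had 1928, 1870, 1865 and 1972 CPM at days 0, 1, 2 and 5 and ranked between 74th and 88th among the genes listed. Cybb, the catalytic subunit that holds the flavin and haem groups, had 256, 278, 275 and 257 CPM on the same days. Day 5 differed from day 0 by 1.02-fold (interval 0.998 to 1.05) for Cyba and by 1.00-fold (0.938 to 1.07) for Cybb. The Cybb value depended on which barcodes were taken: among those with at least 1000 genes, only 96 of them at day 0, it was lower at day 5 than at day 0 by 0.54 on the log2 scale (log2 ratio -0.54).

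The cytosolic subunits and the GTPase did not keep 1 course. Ncf1, the organiser that is phosphorylated on activation and carries the cytosolic subunits to the membrane, had 147 CPM (136 to 159) at day 0, 180.2 CPM (174 to 186) at day 1, 195 CPM (187 to 203) at day 2 and 127 CPM (121 to 133) at day 5. Its highest level was thus at day 2 and its lowest at day 5, and the 4 intervals were disjoint. Ncf4, a phosphoinositide-binding subunit that supports oxidase activity at the phagosome, had 121 CPM (111 to 132) at day 0, 152 CPM (147 to 158) at day 1, 163 CPM (156 to 170.0) at day 2 and 210.2 CPM (203 to 218) at day 5. Rac2, the Rac GTPase of blood cells, had 113 CPM (103 to 124) at day 0, 166 CPM (160 to 172) at day 1, 169.5 CPM (162 to 177) at day 2 and 217 CPM (210 to 225) at day 5. Both were lowest at day 0 and highest at day 5, with days 1 and 2 between them and overlapping in interval.

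At day 5 against day 0, Rac2 was 1.92-fold higher (1.75 to 2.12) and Ncf4 1.73-fold higher (1.58 to 1.90), while Ncf1 was 1.16-fold lower (1.06 to 1.27). With 1.5-fold as the size of difference counted, 2 of 5 subunits were higher and 0 lower, beside 17% and 9.17% of 7419 genes of at least 10 CPM. Of those genes, 92.7% had a smaller ratio than Rac2 and 89.9% a smaller ratio than Ncf4. At day 5 against day 2, 0 subunits were 1.5-fold higher (8.58% of all genes) and 1 was lower (8.06% of all genes), namely Ncf1 at 1.54-fold lower (1.45 to 1.64). In the other 4 pairs of days no subunit was past 1.5-fold in either direction. The shares of all genes past it, higher and then lower, were 13.9% and 5.17% for day 1 against day 0, 13.8% and 6.19% for day 2 against day 0, 0.602% and 0.794% for day 2 against day 1, and 7.84% and 8.65% for day 5 against day 1. Rac2 came closest, at 1.46-fold (1.33 to 1.61) for day 1 against day 0 and 1.498-fold (1.36 to 1.66) for day 2 against day 0.

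The median gene also had a positive log2 ratio to day 0, of 0.15 at day 1, 0.14 at day 2 and 0.11 at day 5. Set against it, the day 5 log2 ratios to day 0 were 0.83 for Rac2, 0.68 for Ncf4, -0.08 for Cyba, -0.11 for Cybb and -0.32 for Ncf1. Cybb and Cyba thus changed sign between the 2 scalings, and Rac2, Ncf4 and Ncf1 did not. In bulk sums such as these, a different share of cells with a transcript and a different amount per cell cannot be told apart.

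**Figure D1:**
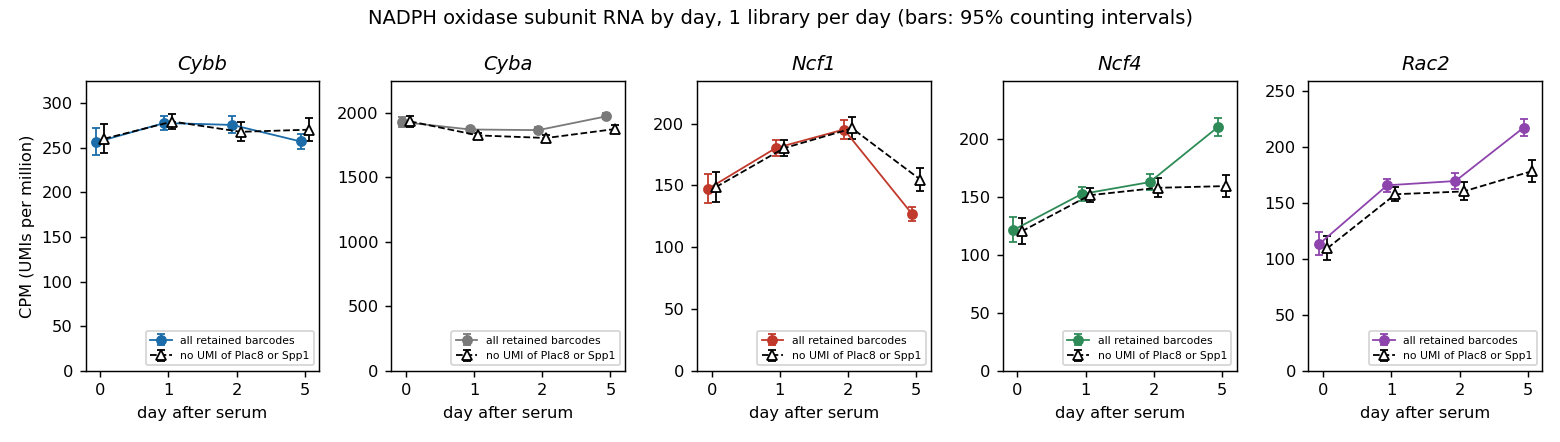
CPM (vertical axis, from 0) of each subunit at days 0, 1, 2 and 5 (horizontal axis) over all retained barcodes (filled circles) and over barcodes with no UMI of Plac8 or Spp1 (open triangles), with 95% counting intervals as bars and 1 library per day. At day 5 the circles stand above the triangles for Ncf4 (210.2 against 159 CPM) and Rac2 (217 against 178 CPM) and below them for Ncf1 (127 against 155 CPM).

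Plac8, a gene expressed by monocytes, had at least 1 UMI in 0.861%, 1.27%, 1.91% and 25.5% of retained barcodes at days 0, 1, 2 and 5. For Spp1, which encodes osteopontin, the shares were 9.53%, 9.09%, 14.1% and 33.9%. When barcodes with either gene were left out (1589 remained at day 5), Rac2 was 1.63-fold higher (1.46 to 1.83) at day 5 than at day 0 and Ncf4 1.33-fold higher (1.19 to 1.48). Set against day 2, day 5 then had 1.01 times (0.933 to 1.09) the Ncf4 and 1.11 times (1.03 to 1.20) the Rac2. Ncf1 was 1.27-fold lower (1.18 to 1.37) at day 5 than at day 2 in these barcodes and stood at 1.04-fold (0.939 to 1.16) against day 0. In the plot of CPM by day this is the gap between circles and triangles at day 5, which is absent at day 0.

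In the GRCm38 mouse genome, Cybb lies at chrX:9435252-9487771 and Cyba at chr8:122424776-122432930, both on the minus strand. Ncf1 lies at chr5:134220053-134229625 on the minus strand. Ncf4 (chr15:78244801-78262580, plus strand) and Rac2 (chr15:78559167-78572783, minus strand), the 2 subunits with their highest level at day 5 and lowest at day 0, are on the same chromosome, 296587 bases apart. Promoter windows of 300 bases, 250 before and 50 after the start annotated by RefSeq (GRCm38.p6), were given for 3 of the 5 genes, Cybb, Cyba and Ncf1. The Cybb window lies inside the Cybb locus above, so its start is not the one at which that locus begins. The windows are shown because Cybb and Ncf1 share a motif while their RNA differed in direction between the marker groups below. Capitals mark matches on either strand to GAGGAA, the core bound by the macrophage factor PU.1, or to TTTC, any 2 bases and TTTC again, the repeat bound by interferon regulatory factors.
Cybb promoter, chrX:9469275-9469574, minus strand: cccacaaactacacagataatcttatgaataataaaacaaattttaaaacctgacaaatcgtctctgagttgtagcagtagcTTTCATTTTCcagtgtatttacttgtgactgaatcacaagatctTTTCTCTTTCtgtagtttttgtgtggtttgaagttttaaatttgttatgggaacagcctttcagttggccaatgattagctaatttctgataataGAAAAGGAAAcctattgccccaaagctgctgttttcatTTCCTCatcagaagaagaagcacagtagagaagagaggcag
Cyba promoter, chr8:122432891-122433190, minus strand: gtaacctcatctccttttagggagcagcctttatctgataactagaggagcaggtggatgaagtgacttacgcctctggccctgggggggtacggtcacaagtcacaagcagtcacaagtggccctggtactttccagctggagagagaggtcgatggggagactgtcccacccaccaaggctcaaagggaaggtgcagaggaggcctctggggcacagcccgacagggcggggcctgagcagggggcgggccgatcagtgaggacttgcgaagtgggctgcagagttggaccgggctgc
Ncf1 promoter, chr5:134229576-134229875, minus strand: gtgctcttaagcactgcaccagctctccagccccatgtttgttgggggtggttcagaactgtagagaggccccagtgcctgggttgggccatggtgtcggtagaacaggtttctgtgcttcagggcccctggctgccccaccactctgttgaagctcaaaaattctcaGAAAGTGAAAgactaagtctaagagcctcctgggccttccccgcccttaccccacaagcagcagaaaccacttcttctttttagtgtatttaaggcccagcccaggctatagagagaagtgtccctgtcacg
The interferon-type repeat matched in Cybb at 3 places, beginning 168, 124 and 29 bases before the start, and in Ncf1 at 1 place 82 bases before it. It had 0 matches in the Cyba window. The PU.1 core matched in Cybb alone, at 1 place 10 bases after the start, and no matches overlapped. Among 27025 genes with a window, 3.49% held the repeat and 28.3% the core. A match of letters is a description and not a site.

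Each library was next divided by 5 marker genes, a barcode with at least 1 UMI being positive. The markers were Sparc (a matrix protein of lining macrophages), Cd163 (a haemoglobin scavenger receptor of interstitial macrophages), H2-Aa (an MHC class II chain), Plac8 and Spp1. Positive groups held between 354 and 2254 barcodes, apart from Plac8 with 32, 59, 52 and 826 at days 0, 1, 2 and 5, and the Plac8 group of day 0 was not compared because it had under 50. The groups overlapped widely. At day 0, 48.5% of H2-Aa positive and 54.5% of Spp1 positive barcodes also had a Sparc UMI, beside 51.5% of all retained barcodes. At day 5, Sparc was found in 18.8% of H2-Aa positive and 8.60% of Plac8 positive barcodes, against 28.3% of all, and 53.8% of Plac8 positive barcodes had H2-Aa. Free RNA in droplets can also give a marker UMI, which the numbers of marker UMIs below address in part.

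The Plac8 groups differed most. Rac2 had 408 CPM in Plac8 positive and 163 CPM in Plac8 negative barcodes at day 1, 386 and 165 CPM at day 2, and 348 and 173 CPM at day 5. The positive group was therefore 2.51-fold (2.03 to 3.07), 2.33-fold (1.86 to 2.89) and 2.01-fold (1.88 to 2.16) higher on the 3 days, and the intervals of the CPM did not overlap on any of them. Ncf4 had 212 CPM in positive and 152 CPM in negative barcodes at day 1, 308 and 160 CPM at day 2, and 329.5 and 169.8 CPM at day 5, which was 1.94-fold higher (1.81 to 2.09) at day 5. Cybb had 445 CPM in positive and 275 CPM in negative barcodes at day 1, 602 and 269 CPM at day 2, and 300.4 and 242 CPM at day 5. Its ratio was largest at day 2, at 2.24-fold (1.88 to 2.65), and smallest at day 5, at 1.24-fold (1.16 to 1.33). Cyba was 1.31-fold, 1.20-fold and 1.115-fold higher on the 3 days.

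Ncf1 ran the other way in the same barcodes. It had 95.7 CPM in Plac8 positive and 181 CPM in negative barcodes at day 1, 134 and 196 CPM at day 2, and 70.7 and 146 CPM at day 5. The group with Plac8 was the lower on each day, by 1.89-fold (1.26 to 2.99), 1.46-fold (1.03 to 2.16) and 2.06-fold (1.81 to 2.36), though the CPM intervals met at day 2. Over the 3 days, 7 of 15 subunit ratios were at least 1.5-fold higher and 2 of 15 lower, beside 15.6% and 24.3% of 22855 gene and day ratios of all genes. At day 5 alone the background was 9.63% higher and 24.1% lower, and 95.5% of genes had a smaller ratio than Rac2, 95.2% a smaller one than Ncf4 and 10.3% a smaller one than Ncf1. Days 1 and 2 rest on 59 and 52 positive barcodes, with 23 and 31 UMIs of Ncf1. These positive groups held 240255 and 230808 UMIs of all genes, so background genes near 10 CPM rest on few counts there. The median gene had a log2 ratio of -0.185 between the Plac8 groups of day 5.

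**Figure D2:**
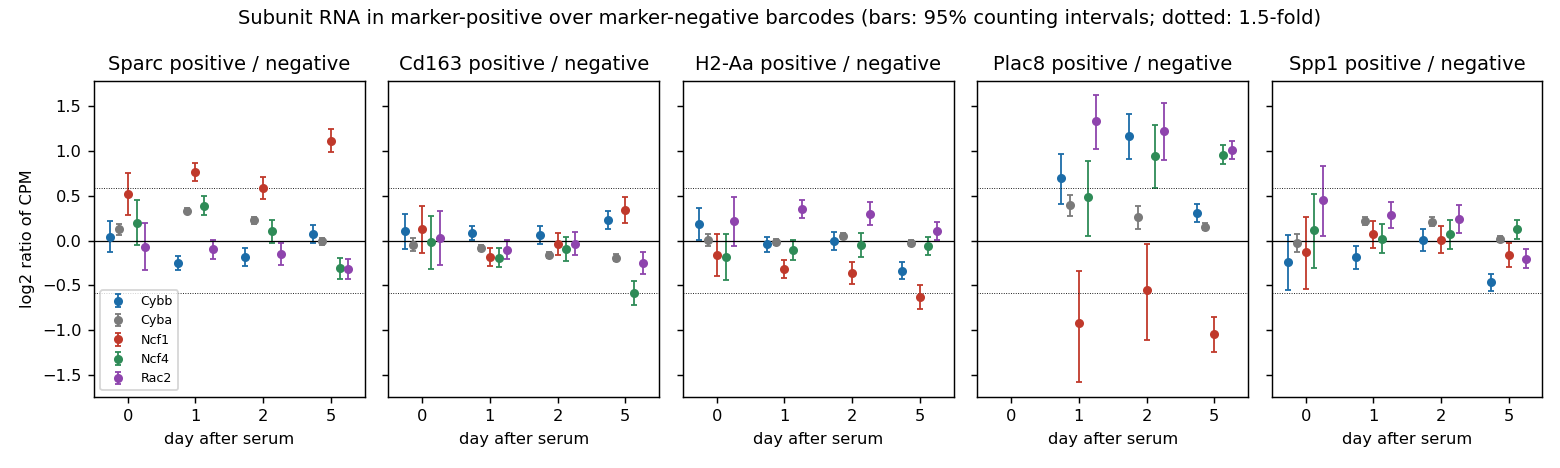
Log2 ratio (vertical axis) of each subunit's CPM in marker-positive over marker-negative barcodes of the same library at days 0, 1, 2 and 5 (horizontal axis), one panel per marker, with 95% counting intervals as bars and dotted lines at 1.5-fold. Ncf1 lies above 0 in all 4 Sparc comparisons and below 0 in the 3 Plac8 comparisons, where Rac2 and Ncf4 lie above 0.

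Sparc divided the subunits differently, with Ncf1 the one that stood out. Ncf1 had 171 CPM in Sparc positive and 119 CPM in Sparc negative barcodes at day 0, 233 and 138 CPM at day 1, 231.5 and 154 CPM at day 2, and 204 and 94.1 CPM at day 5. It was higher in the positive group by 1.43-fold (1.22 to 1.69) at day 0, 1.70-fold (1.58 to 1.82) at day 1, only just past 1.5-fold (1.38 to 1.63) at day 2 and 2.17-fold (1.98 to 2.37) at day 5. Ncf1 at days 1, 2 and 5 made up the 3 of 20 ratios (5 subunits on 4 days) at least 1.5-fold higher, and 0 were lower, beside 7.63% and 6.94% of 29515 ratios of all genes. On the day 5 library alone 15.1% of genes were higher and 12% lower, with 94.4% below Ncf1. Cyba was 1.26-fold (1.23 to 1.29) and 1.17-fold (1.14 to 1.20) higher in Sparc positive barcodes at days 1 and 2 and at 0.995-fold (0.970 to 1.02) at day 5. Ncf4 was 1.31-fold higher (1.22 to 1.41) at day 1 and 1.24-fold lower (1.14 to 1.34) at day 5, and Rac2 was 1.25-fold lower (1.15 to 1.35) at day 5. Sparc positive barcodes were deeper than negative ones after day 0, with a median of 4437 against 3730 UMIs at day 5.

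H2-Aa, Cd163 and Spp1 went with smaller differences. Ncf1 was lower in H2-Aa positive barcodes on every day, with 141 CPM in positive and 157 CPM in negative barcodes at day 0, 157 and 195 CPM at day 1, 166 and 214 CPM at day 2, and 101 and 156 CPM at day 5. The day 0 ratio of 0.894 had an interval with 1 in it (0.761 to 1.05). Only the day 5 difference, 1.54-fold lower (1.41 to 1.69), was past 1.5-fold, which made 1 of 20 lower and 0 higher, beside 5.05% and 4.25% of 29337 ratios. The count of 1 lower was 3 with at least 2 H2-Aa UMIs or with positive barcodes called after every barcode was thinned at random to 500 UMIs, and 0 with the mean of each barcode's CPM or without the 5% of barcodes with the most UMIs. Rac2 was 1.28-fold (1.19 to 1.37) and 1.23-fold (1.13 to 1.35) higher in H2-Aa positive barcodes at days 1 and 2. For Cd163, 0 of 20 ratios were higher and 0 lower, beside 4.84% and 3.66% of 29411. The nearest was Ncf4 at day 5, with 152 CPM in Cd163 positive and 228 CPM in Cd163 negative barcodes, a ratio of 0.6668 that fell just short and was past 1.5-fold lower, between 0.571 and 0.664, under 6 alternatives. For Spp1, 0 of 20 were higher and 0 lower, beside 5.67% and 7.25% of 29418, and the largest difference was Cybb at day 5, with 209 CPM in Spp1 positive and 288 CPM in Spp1 negative barcodes, 1.38-fold lower (1.29 to 1.48). It was past 1.5-fold lower with at least 2 Spp1 UMIs (0.596) and in single-marker groups (0.559), and Rac2 at day 5 was with calls after thinning (0.6635).

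**Figure D3:**
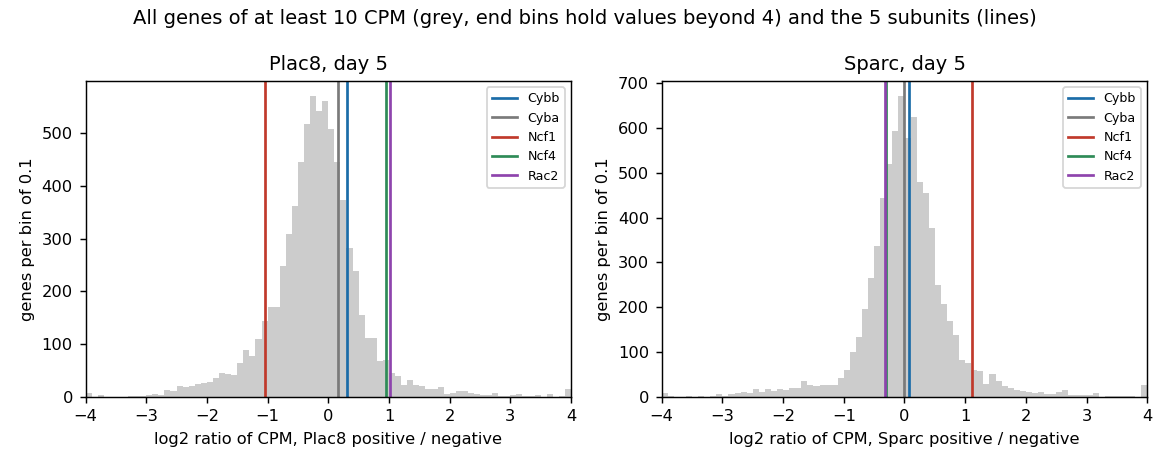
Number of genes (vertical axis) by log2 ratio of CPM in marker-positive over marker-negative barcodes at day 5 (horizontal axis, bins of 0.1, values beyond 4 in the end bins) for Plac8 (left) and Sparc (right), with lines for the 5 subunits. Rac2 and Ncf4 lie to the right and Ncf1 to the left of most genes for Plac8, and Ncf1 lies to the right for Sparc, where the Ncf4 and Rac2 lines coincide at -0.31 and -0.32.

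Because the markers overlap, day 5 barcodes with a UMI of 1 marker alone were also set side by side. There were 220 with Plac8 alone, 198 with Spp1 alone, 346 with H2-Aa alone, 203 with Cd163 alone, 314 with Sparc alone and 264 with none of the 5. Rac2 had 430.3 CPM (387 to 477) in the Plac8 group, 144 in the Spp1 group, 202 in the H2-Aa group, 157 in the Cd163 group and 169 in the Sparc group, against 144.5 with no marker. Its value with Plac8 was apart from all the others, whose intervals, between 119 and 226 CPM, overlapped with their neighbours in order. Ncf4 showed the same place for Plac8, at 371 CPM (331 to 414), followed by Spp1 at 231 CPM (199.9 to 266), Sparc at 187, H2-Aa at 156 and Cd163 at 126 CPM, with 176 CPM where no marker was found.

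Ncf1 was lowest where Rac2 and Ncf4 were highest, and its highest level was in another group, with 51.3 CPM (37.1 to 69.1) in the Plac8 group and 232 CPM (207 to 260) in the Sparc group. Plac8 barcodes were thus 4.53-fold lower (3.29 to 6.39) in Ncf1 than Sparc barcodes, while they were 2.54-fold higher (2.15 to 3.02) in Rac2, 1.99-fold higher (1.67 to 2.36) in Ncf4 and 1.49-fold higher (1.28 to 1.73) in Cybb. The H2-Aa group, at 89.5 CPM (75.4 to 106), lay between, below the Spp1 group at 123 CPM, whose interval (101 to 149) met it. Cybb was highest with Plac8, at 412.5 CPM (370.1 to 458), and lowest with Spp1, at 166 CPM (139.7 to 196), a 2.48-fold difference (2.04 to 3.05). Cyba ranged least, with 2371 CPM (2268 to 2478) in the Plac8 group and 1551 CPM (1461 to 1645) in the Cd163 group at its ends, 1.53-fold apart (1.42 to 1.65).

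**Figure D4:**
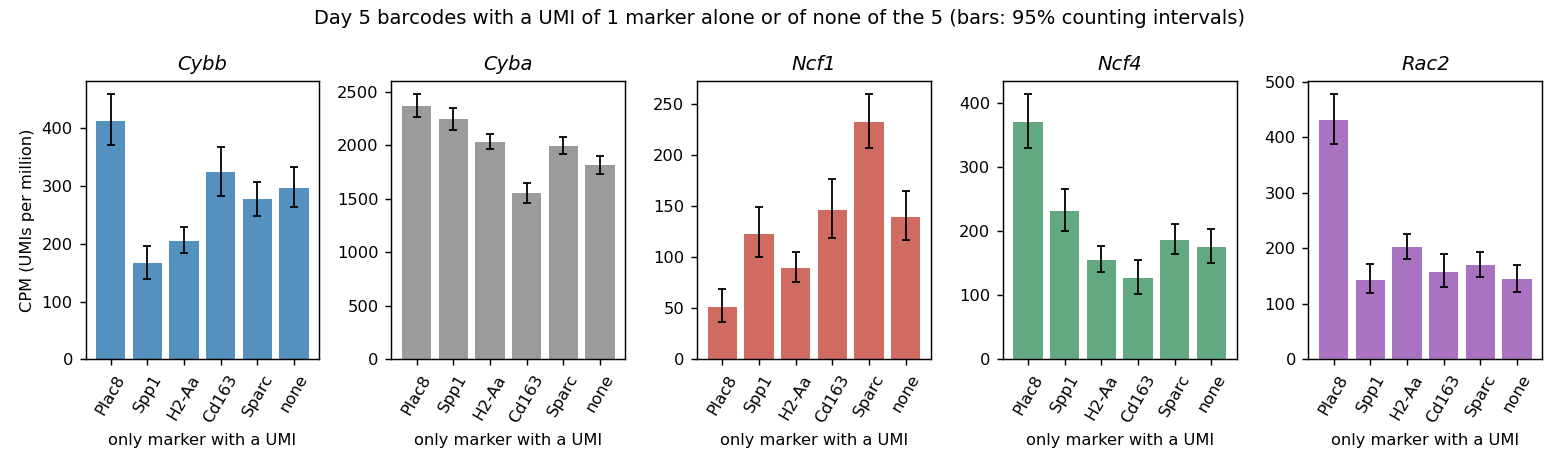
CPM (vertical axis, from 0) of each subunit at day 5 in barcodes with a UMI of Plac8, Spp1, H2-Aa, Cd163 or Sparc alone or of none of the 5 (horizontal axis), with 95% counting intervals. The Plac8 bar is the tallest for Cybb, Cyba, Ncf4 and Rac2 and the shortest for Ncf1, where Sparc is the tallest.

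Levels were also set against the number of marker UMIs in a barcode, and several differed from bin to bin. At day 5 Rac2 had 173, 239, 329, 371 and 451.5 CPM in barcodes with 0, 1, 2 to 4, 5 to 9 and 10 or more UMIs of Plac8, and Ncf4 had 169.8, 251.5, 353, 333 and 381 CPM. Ncf1 had 146, 100.4, 66.9, 58.8 and 54.7 CPM over the same bins, so that its lowest levels were where Plac8 was most abundant. Cybb had 242, 179, 247, 336 and 435.5 CPM, lower with a single Plac8 UMI than with none and highest with 10 or more. For Sparc, barcodes with 1 UMI had 92.5 CPM of Ncf1 (72.7 to 116), level with the 94.1 CPM (88.3 to 100.1) of barcodes with none, whereas those with 2 to 4, 5 to 9 and 10 or more had 206, 212 and 244.5 CPM. The others had no such order over the Sparc bins, Cybb with 253, 233, 338, 293 and 242 CPM, Ncf4 with 223, 194, 162, 159 and 192 CPM, and Rac2 with 231, 190.1, 176, 184 and 187 CPM. The median depth of these bins lay between 3650 and 5117 UMIs, and the 354 barcodes with the most Sparc UMIs were the deepest.

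**Figure D5:**
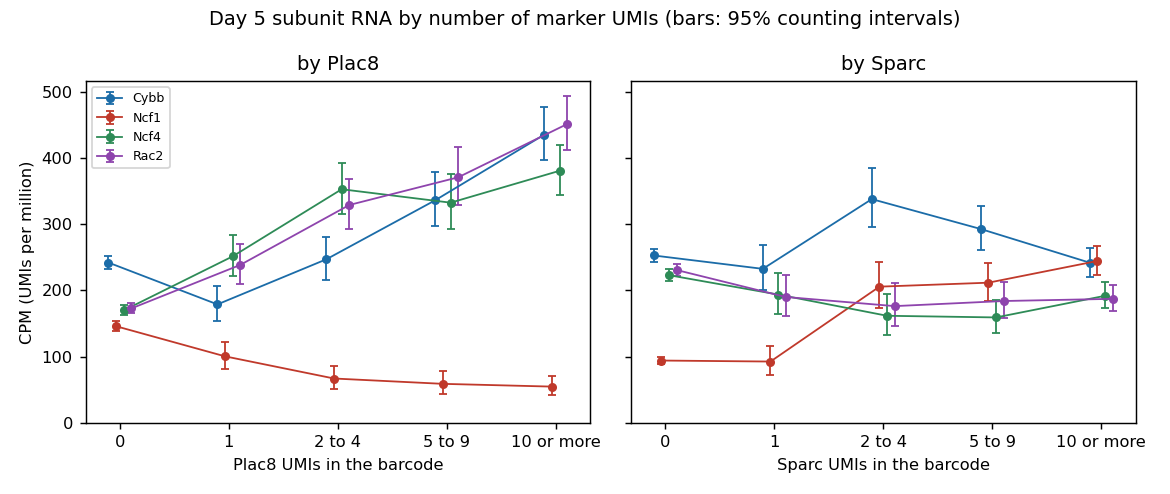
CPM (vertical axis, from 0) of Cybb, Ncf1, Ncf4 and Rac2 at day 5 in barcodes grouped by their number of UMIs (horizontal axis) of Plac8 (left) or Sparc (right), with 95% counting intervals. With more Plac8 UMIs Rac2 goes up to 451.5 CPM and Ncf1 goes down to 54.7 CPM, and with more Sparc UMIs Ncf1 goes up to 244.5 CPM.

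When Plac8 was crossed with the other markers at day 5, Rac2 and Ncf4 were higher with Plac8 within the positive barcodes of each, with intervals apart. Ncf1 was lower with Plac8, and Cybb higher, within each as well, but some of these intervals overlapped. Cyba was higher with Plac8 among H2-Aa and Cd163 positive barcodes with intervals apart, and its intervals overlapped among Spp1 and Sparc positive ones. Overlapping intervals do not show that a difference is absent. Among Spp1 positive barcodes, Rac2 had 304.5 CPM with Plac8 and 165 CPM without it, Ncf4 had 330.5 and 185.5 CPM, and Ncf1 had 75.8 and 133 CPM. Among H2-Aa positive barcodes, Rac2 had 331 CPM with Plac8 and 184 CPM without, and Ncf1 had 70.5 and 113 CPM. The H2-Aa difference in Ncf1 was present among Plac8 negative barcodes, with 113 CPM in H2-Aa positive and 181 CPM in H2-Aa negative ones, and small among Plac8 positive barcodes, with 70.5 and 71.1 CPM. Among Sparc positive barcodes, 71 of them with Plac8, Rac2 had 254 CPM (207 to 308) with Plac8 and 178.5 CPM (166 to 192) without, and Ncf4 had 254 and 173 CPM. Ncf1 in these had 155 CPM (119 to 199) with Plac8 and 209 CPM (195 to 223) without, and Cybb 303 CPM (252 to 361) and 263 CPM (247 to 279), so that both pairs of intervals overlapped. Among Cd163 positive barcodes, 68 of them with Plac8, Rac2 had 319.9 CPM (264 to 384) with Plac8 and 176 CPM (162 to 191) without, and Ncf4 had 216 and 145 CPM. The Ncf1 intervals overlapped there too, at 121 CPM (87.3 to 163) with Plac8 and 154 CPM (141 to 169) without. Cyba among Spp1 positive barcodes was near level, with 1999 CPM with Plac8 and 1981 CPM without. Among Sparc positive barcodes it had 1992 CPM with Plac8 and 1961 CPM without.

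Within positive groups, values could be set between days, but a group did not hold like barcodes on each day. Of H2-Aa positive barcodes, 0.976% had Plac8 at day 0 and 28.5% at day 5. Rac2 at day 5 had 225 CPM in all H2-Aa positive barcodes and 184 CPM in those without Plac8. In Sparc positive barcodes, 5 MHC class II genes summed to 9596 CPM at day 0 and 4001 CPM at day 5. The part of this in the ratios below was not tested. In Sparc positive barcodes Rac2 had 111, 160, 161 and 185 CPM at days 0, 1, 2 and 5, and was 1.67-fold higher (1.45 to 1.93) at day 5 than at day 0. Ncf1 in those barcodes had 171, 233, 231.5 and 204 CPM, with its highest values at days 1 and 2. In H2-Aa positive barcodes Rac2 was 1.89-fold (1.67 to 2.13) and Ncf4 1.78-fold (1.58 to 2.02) higher at day 5 than at day 0, and in Cd163 positive barcodes the same ratios were 1.66-fold (1.37 to 2.02) and 1.26-fold (1.04 to 1.54). At day 5 against day 2, Ncf1 was lower in all 5 positive groups, by 1.90-fold (1.27 to 2.76) with Plac8, 1.66-fold (1.47 to 1.87) with Spp1, 1.64-fold (1.49 to 1.82) with H2-Aa, 1.27-fold (1.15 to 1.42) with Cd163 and 1.14-fold (1.05 to 1.24) with Sparc. Cybb in Plac8 positive barcodes had 445, 602 and 300.4 CPM at days 1, 2 and 5, so that day 5 was 2.01-fold lower (1.67 to 2.39) than day 2, although the 235 day 5 barcodes with 10 or more Plac8 UMIs had 435.5 CPM.

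Markers of other cells moved with some of these groups. The monocyte list (6 genes, Plac8 among them) summed to 4156 CPM in Plac8 positive barcodes at day 5 and 1269 CPM in the whole library, and the list of neutrophil genes to 116 and 48.4 CPM, with 5 of 10 listed and Ly6g, Camp, Ngp, Ltf and Retnlg not listed. In the Plac8 positive barcodes of days 1 and 2 the neutrophil list had 79.1 and 191 CPM, and in the 32 of day 0 it had 0. The stress list of immediate early and heat shock genes was at 7311 CPM in Plac8 positive barcodes and 4848 CPM in all of day 5. Fibroblast genes (6 of 6 listed) had 265 CPM in Sparc positive barcodes and 95.1 CPM in all at day 5, with a range of 51.3 to 265 CPM in Sparc positive barcodes over the days. The osteoclast lineage list (5 of 5 listed) had 2336, 969, 1012 and 2448 CPM in Spp1 positive barcodes at days 0, 1, 2 and 5, and 954, 239, 317 and 1185 CPM in all. Haemoglobin genes and Alas2 (4 of 5 listed) had 398 CPM in Spp1 positive barcodes and 161 CPM in all at day 5. The part of these in the subunit differences was not tested.

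Few barcodes showed many subunits at once at an equal, low depth. No share expected from the CPM alone was computed, so this does not show how often subunits are expressed together. With every barcode reduced at random to 500 UMIs, a depth that each retained barcode reached, Cyba was found in 61.3%, 57.2%, 55.5% and 61.1% of barcodes at days 0, 1, 2 and 5, and Cybb in 11.1%, 13.8%, 12.9% and 12.8%. Ncf1 was found in 7.11%, 8.19%, 9.18% and 6.62%, Ncf4 in 6.03%, 6.96%, 7.46% and 9.18%, and Rac2 in 5.20%, 7.69%, 7.49% and 9.86%. For Ncf1, Ncf4 and Rac2, the days with the lowest and highest shares were those with the lowest and highest CPM. At least 3 subunits were found in 1.62% (1.24 to 2.07%), 2.59% (2.15 to 3.08%), 2.61% (2.04 to 3.28%) and 3.37% (2.78 to 4.05%) of barcodes at days 0, 1, 2 and 5, against 11.6%, 60.3%, 66.1% and 67.6% unthinned, where depth differs. Barcodes with at least 10 UMIs of fibroblast genes and none of Ptprc, a rule chosen after values were seen, stood for cells that should lack the enzyme, but numbered only 2, 6, 2 and 11 at days 0, 1, 2 and 5. They held 1, 0, 0 and 0 UMIs of Cybb, 0, 2, 0 and 0 of Ncf1, 0, 1, 0 and 0 of Ncf4 and 0 of Rac2 on each day, at median depths of 1331, 3961.5, 5129.5 and 3113 UMIs. Their Cyba was at 751, 599.6, 487 and 628.5 CPM. They are too few to set a background share.

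The remaining parts of the enzyme were read from lists. Of 6 names for other parts, 5 were measured, since BC017643 is the older name of Cybc1, a chaperone of the membrane pair. At day 5 against day 0, 0 of 5 were at least 1.5-fold higher and 0 lower, with a median log2 ratio of 0.29 against 0.11 for all genes. Rac1, the widely used relative of Rac2, had 171 CPM at day 5 and 119 CPM at day 0, 1.43-fold higher (1.31 to 1.58). It had 183 CPM at day 1 and 173 CPM at day 2. In Plac8 positive barcodes of day 5 Rac1 had 160.0 CPM. Of 14 activators, 7 were at least 1.5-fold higher and 0 lower, with a median log2 ratio of 0.57, beside 17% and 9.17% of all genes and their median of 0.11. Among them Fcgr1, an activating IgG receptor, had 165 CPM at day 5 and 52.4 CPM at day 0, 3.14-fold higher (2.74 to 3.61). Pik3cd, a leukocyte phosphoinositide kinase, was 2.78-fold higher (1.96 to 4.05), Itgam, an integrin chain of complement receptor and part of the sort, 1.80-fold (1.64 to 1.98), and Syk, a kinase of Fc receptor signalling, 1.60-fold (1.35 to 1.90). At day 1 against day 0, 5 of the 14 activators were already higher and 0 lower, beside 13.9% and 5.17% of all genes. At day 5 against day 1, 1 was higher and 1 lower, beside 7.84% and 8.65%. Itgam had 237, 224 and 209 CPM at days 1, 2 and 5.

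Of 15 genes that handle superoxide and peroxide, 13 were measured, 4 were at least 1.5-fold higher at day 5 than at day 0 and 0 lower, with a median log2 ratio of 0.26, beside the same 17% and 9.17% of all genes and median of 0.11. The 4 were the peroxiredoxins Prdx6 at 1.72-fold (1.56 to 1.89), Prdx5 at 1.55-fold (1.47 to 1.64) and Prdx3 at 1.54-fold (1.33 to 1.81), and the thioredoxin reductase Txnrd1 at 1.62-fold (1.35 to 1.95). Among transcription factors known at oxidase promoters, Irf1, an interferon regulatory factor, had 18.1 CPM at day 5 and 42.6 CPM at day 0, 2.35-fold lower (1.94 to 2.84). Irf8, another of that family, was 1.26-fold lower (1.13 to 1.41), and Elf1, an ETS factor, was at 1.14-fold (0.990 to 1.32). Spi1, which encodes PU.1 and was named after its value was seen, was at 0.960-fold (0.919 to 1.004). Of 8 genes of other oxidases and of inducible nitric oxide synthase, 0 reached 10 CPM, and only Noxo1 was listed on each day, at 0.738 to 1.15 CPM.

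Across the 20 groups made by 5 markers on 4 days, the genes with the closest pattern to each subunit were taken by Pearson's r of log2(CPM + 10) among 4081 genes. The groups share libraries and barcodes, and 1 of them (Plac8 at day 0) has 32 barcodes, so the values only describe. The pattern of Ncf1 was the most closely followed, by Nfic at 0.981, Smim14 at 0.968 and Pla2g16 at 0.954. Rac2 was followed by Cers6 at 0.944, Samsn1 at 0.942 and Cyp4f18 at 0.94, and Ncf4 by Cope at 0.943, Pycard at 0.937 and Ppp4c at 0.934. For Cybb the genes were Prkx at 0.919, Pglyrp1 at 0.898 and Fam103a1 at 0.877, and for Cyba they were Rgs2 at 0.84, Ccdc12 at 0.796 and Ppdpf at 0.789. Between subunits r was 0.852 for Ncf4 with Rac2, 0.702 for Cyba with Rac2 and 0.626 for Cybb with Rac2, and it was between -0.445 and -0.171 for Ncf1 with each of the others.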

How the data were processed

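For each of the 4 libraries the authors deposited 1 matrix of raw UMI counts, without normalization, by gene and cell barcode. The submitters' processing notes name mm10 (GRCm38), R 3.5.2, Seurat 2.3 and Cell Ranger 2.1.0, without the step that each served. A gene is listed in a matrix if 5 or more of its barcodes hold it, so a gene that is not listed may not be at 0. The day 0, 1, 2 and 5 libraries held 4347517, 18373038, 12159063 and 14901661 UMIs in retained barcodes.

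The retained barcodes had 500 or more genes and a mitochondrial share below 10%. UMIs were summed over a group and given as CPM with exact Poisson 95% intervals, ratios with exact conditional Poisson 95% intervals, and shares with exact Clopper-Pearson intervals. PCR copies are removed by UMIs, and spread between cells, mice or libraries is not covered. Because a 3' tag is counted once per transcript, CPM was not divided by gene length. All genes listed on both sides with at least 10 CPM on 1 side gave the background, and 0 counts were set to 3 in ratios. Thinning to 500 UMIs was drawn without replacement. No doublet caller was run, and an alternative without the 5% of barcodes with the most UMIs stands in its place.

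The subunits and lists were chosen with earlier results of these data known. Genes named besides the members were up to 4 per list with the largest day 5 ratios in either direction, and the 3 with the highest r for each member, of at least 50 CPM in 1 group. Values of some listed genes are not reported here. Loci are from GENCODE M21 and promoters from RefSeq. The tools were matplotlib 3.10.9, SciPy 1.17.1, NumPy 2.4.6 and pandas 2.3.3 under Python 3.11.15. Data were simulated for the day 5 and day 0 libraries (7078 genes) as Poisson counts, without spread between cells, mice or libraries. Of 200 genes changed 2-fold, 98.5% were past 1.5-fold, as were 0.262% of unchanged genes. The true ratio was in 95.1% of intervals. The intervals assume Poisson counts too, so the simulation checks the calculation and not the spread between animals. Alternatives were gene minimums of 200 and 1000, a 5% mitochondrial limit, the mean of each barcode's CPM, median-ratio scaling, no barcodes with Plac8 or Spp1, at least 2 marker UMIs, marker calls after thinning, and single-marker groups. Leaving out the day 0 library and counting ratios 1.5-fold lower were added after the data were seen.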

Additional observations from a re-analysis of the deposited data

How the results depend on the processing

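No paired analysis was possible because each day has 1 library. Of 92 values of the median log2 ratios and of the counts past 1.5-fold under alternatives, 73 stayed within the counting spread or within 1.5 times the count and 19 moved. No median was itself past 1.5-fold and counts have no direction, so none of these values could have been called reversed. The median for day 5 against day 0, near 0, changed sign under median-ratio scaling. The median log2 ratio of the 5 subunits was 0.29 for day 1 against day 0, 0.41 for day 2 against day 0, 0.03 for day 5 against day 0, 0.08 for day 5 against day 1 and 0.08 for day 5 against day 2. With the mean of each barcode's CPM it was 0.233, 0.201 and 0.193 for day 5 against days 0, 1 and 2, and without the 5% of barcodes with the most UMIs 0.227, 0.182 and 0.179. Median-ratio scaling gave 0.141 for day 1 and 0.273 for day 2 against day 0, and -0.0791, 0.131 and 0.118 for day 5 against days 0, 1 and 2, by the shift of the median gene. Without barcodes of Plac8 or Spp1 it was 0.0382 and 0.0138 for day 5 against days 1 and 2. The Plac8 count of 7 of 15 ratios was 2 of 5 with at least 1000 genes, with at least 2 marker UMIs and in single-marker groups, and 3 of 5 with marker calls after thinning, since days 1 and 2 then had under 50 positive barcodes. The Cd163 count of 0 was 1 in single-marker groups, and the Spp1 count of 0 was 1 with at least 2 marker UMIs. For counts of lower ratios, 0 for Cd163 was 1 or 2 under 6 alternatives, 0 for Spp1 was 1 under 3, and 1 for H2-Aa ran between 0 and 3. Rac2 by Cd163 at day 0 ran between 0.604 and 1.545. Of the values of single subunits, 188 stayed and 72 moved, among them Cybb against day 0, which was -0.44, -0.442 and -0.54 at days 1, 2 and 5 with at least 1000 genes (96 barcodes at day 0), and Ncf1 for day 5 against day 0, which was 0.0578 without Plac8 or Spp1 barcodes. The cause was not tested. Depth limits day 0 most, where subunits other than Cyba had 492 to 1113 UMIs.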

Other observations

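Ncf4 and Rac2 had the highest r of any pair of subunits over the 20 groups of barcodes, and 10 protein-coding genes lie in the 296587 bases between them on chromosome 15, of which 5 were listed in all 4 libraries. These neighbours were looked at after values were seen. Csf2rb, the shared receptor chain for the growth factor GM-CSF, had 23.7, 31.0, 27.9 and 61.6 CPM at days 0, 1, 2 and 5. At day 5 it had 120.5 CPM in Plac8 positive and 41.6 CPM in Plac8 negative barcodes, 2.90-fold higher (2.54 to 3.30). Csf2rb2, a related receptor chain in mice, had 23.6 CPM in Plac8 positive and 13.4 CPM in Plac8 negative barcodes, 1.76-fold higher (1.34 to 2.304). Mpst, a sulfurtransferase gene in the same interval, had 11.4 and 15.6 CPM, at 0.733-fold (0.512 to 1.03). The other listed neighbours, Tst and C1qtnf6, were at 0.658 to 1.81 CPM in the 4 libraries.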
